A study of Mus musculus with 59 samples.

Results

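The troponin isoforms are the 8 mouse genes that encode the calcium switch of the sarcomere, chosen by gene symbol as Tnni1, Tnni2, Tnni3, Tnnt1, Tnnt2, Tnnt3, Tnnc1 and Tnnc2. They were 8 of the 47643 genes in the deposited table of TPM (transcripts per a fixed total, here 1000000 in each library), and all 8 were found in it. The rule names genes by symbol alone, but it was set with earlier results of these data known, and Tnni1 was among the genes the study itself named from these libraries for its response to rFibcd1, so its values here are not independent evidence of that response. The study asked how muscle transcripts differ between mice that carry a melanoma that wastes muscle and mice that carry one that does not, and whether injected recombinant Fibcd1 (rFibcd1), a secreted fibrinogen C domain protein, alters them.

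All 59 libraries came from female NCI Ath/nude mice (athymic, without a normal T cell compartment) aged 4 months that carried a human melanoma xenograft, so no group was free of tumour. The diaphragm gave 4 groups, non-cachectic mock (n = 9), cachectic mock (n = 10), non-cachectic rFibcd1 (n = 10) and cachectic rFibcd1 (n = 10). Tibialis anterior and soleus each gave 5 non-cachectic and 5 cachectic libraries, whose labels name no rFibcd1. The labels give the mock groups only as without rFibcd1, and the mock injection is given in the study's methods. Each melanoma type is a single patient-derived tumour line, so the wasting state and the tumour line cannot be told apart. In whole muscle, fewer fibres of a type and less RNA per fibre cannot be told apart either.

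Troponin sits on the thin filament with actin and tropomyosin and has 3 subunits. Troponin C binds calcium, troponin I holds the myosin sites closed at rest, and troponin T anchors the complex to tropomyosin. Each subunit has isoforms tied to fibre type: Tnni1, Tnnt1 and Tnnc1 serve slow fibres (Tnnc1 also serves the heart), Tnni2, Tnnt3 and Tnnc2 serve fast fibres, and Tnni3 and Tnnt2 are the cardiac I and T genes. Tnnt2 is also transcribed in embryonic skeletal muscle. In the adult mouse the tibialis anterior is nearly all fast, the soleus holds many slow fibres, and the diaphragm is a mainly fast muscle with a slow minority.

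The I and T genes lie in pairs on the genome (GENCODE annotation, GRCm38). Tnni1 (chr1:135779434-135810989, plus strand) lies 25364 bases from Tnnt2 (chr1:135836354-135852260, plus strand), with the protein-coding gene Lad1 between them. Tnnt1 (chr7:4504570-4516382, minus strand) lies 1922 bases from Tnni3 (chr7:4518305-4524229, minus strand), with no protein-coding gene between them. Tnni2 (chr7:142441808-142444410, plus strand) lies 54425 bases from Tnnt3 (chr7:142498836-142516009, plus strand), with Lsp1 between them. The C genes stand alone, Tnnc1 at chr14:31208312-31211729 on the plus strand and Tnnc2 at chr2:164777161-164779967 on the minus strand. Exons of Tnnc2 overlap Ube2c on the other strand, which stayed at or under 6.06 TPM, and exons of Tnni3 overlap Dnaaf3 on the same strand, which reached 8.25 TPM, above every value of Tnni3. Tnni3 values are therefore uncertain.

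RefSeq promoter sequences (GRCm38.p6, the bases before an annotated start) matched 6 of the 8 genes. The 4 shown belong to the genes that were higher in the cachectic tibialis anterior (values further on). Capitals mark E-boxes (CANNTG, the site type of the MyoD family) and the MCAT motif (CATTCC, on either strand).

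Tnni1, chr1:135799171-135799420, plus strand: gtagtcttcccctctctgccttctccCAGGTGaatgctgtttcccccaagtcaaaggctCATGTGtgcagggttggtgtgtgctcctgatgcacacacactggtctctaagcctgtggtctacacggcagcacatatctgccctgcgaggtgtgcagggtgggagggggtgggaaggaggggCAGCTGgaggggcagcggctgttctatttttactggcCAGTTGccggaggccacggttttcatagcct
Tnnt1, chr7:4515976-4516225, minus strand: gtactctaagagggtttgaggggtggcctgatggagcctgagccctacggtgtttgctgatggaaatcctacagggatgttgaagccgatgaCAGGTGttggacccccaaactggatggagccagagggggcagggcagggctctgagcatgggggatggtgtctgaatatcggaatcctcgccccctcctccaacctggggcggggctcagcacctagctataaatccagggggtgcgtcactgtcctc
Tnnc1, chr14:31208062-31208311, plus strand: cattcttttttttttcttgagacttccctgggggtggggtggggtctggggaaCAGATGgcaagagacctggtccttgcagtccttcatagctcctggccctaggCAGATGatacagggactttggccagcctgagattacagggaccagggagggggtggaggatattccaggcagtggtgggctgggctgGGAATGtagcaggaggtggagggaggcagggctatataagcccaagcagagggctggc
Tnnt2, chr1:135836084-135836333, plus strand: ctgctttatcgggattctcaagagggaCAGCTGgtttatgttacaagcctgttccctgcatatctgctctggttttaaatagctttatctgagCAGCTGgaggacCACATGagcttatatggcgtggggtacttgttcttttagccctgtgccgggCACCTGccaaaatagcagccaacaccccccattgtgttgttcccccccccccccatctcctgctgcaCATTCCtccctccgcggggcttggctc

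The Tnni1 and Tnnt2 windows shown each held 4 E-boxes, that of Tnnc1 held 2 and that of Tnnt1 held 1. Tnni1 and Tnnt2 each have a second annotated start, whose windows, not shown, held fewer, 2 E-boxes for Tnni1 (chr1:135799261-135799510) and 1 for Tnnt2 (chr1:135836739-135836988), and no MCAT. An E-box is common, since 66.2% of all 32851 promoters of this length had one. MCAT was found in the windows shown of Tnnc1 and Tnnt2 and in 12.6% of all promoters. The letters TATAAA stood in the Tnnt1 window (lower case) and in 12.4% of all promoters. A MEF2 site was in none of these 4 windows and in 1.69% of all promoters. These matches describe the letters and say nothing of binding.

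Library facts that bear on troponin values were these. Mitochondrially encoded transcripts took from 24.1% to 51.9% of TPM and took less in the cachectic than in the non-cachectic group of each muscle (diaphragm mock 38.1% ± 3.18 against 47.5% ± 2.97, tibialis anterior 38.8% ± 8.12 against 48.5% ± 1.80, soleus 30.5% ± 3.92 against 41.1% ± 2.00, SD). TPM add to a fixed sum, and the median gene was 0.20 (diaphragm), 0.41 (tibialis anterior) and 0.09 (soleus) higher on the log2 scale in the cachectic group; how far the mitochondrial share accounts for that was not tested. Changes are therefore also given relative to that median gene, and the ratios between troponin genes do not depend on it. In addition, 1 cachectic rFibcd1 diaphragm library had the highest TPM of all 59 for Tnni2, Tnnt3 and Tnnc2, and 1 cachectic mock diaphragm library held Myl7, an atrial myosin light chain, at 13.3 TPM where no other library passed 2.28. The pseudogene Pcna-ps2 stood at or above 1 TPM in 5 of 5 cachectic and 0 of 5 non-cachectic libraries in each limb muscle, so the effect of this state and that of the melanoma cannot be told apart there. Among diaphragms, 9 of 10 cachectic mock, 8 of 10 cachectic rFibcd1, 3 of 9 non-cachectic mock and 6 of 10 non-cachectic rFibcd1 libraries were at or above 1 TPM.

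The slow genes spanned the widest range over the muscles. Tnnc1 ranked from soleus through diaphragm to tibialis anterior with no overlap between muscles. In the 5 non-cachectic soleus libraries it measured 5490, 5942, 6799, 7475 and 7706 TPM. The 9 non-cachectic mock diaphragms ran from 320 to 470 TPM with a median of 395. The 5 non-cachectic tibialis anterior libraries held 1.16, 1.16, 1.53, 2.87 and 5.05 TPM. Tnnt1, the slow anchor to tropomyosin, followed the same order, with a mean of 4816 TPM ± 570 (SD, n = 5) in soleus, 445 ± 56.9 (n = 9) in diaphragm and 2.20 ± 1.31 (n = 5) in tibialis anterior. Tnni1, the slow inhibitor, read 1563 ± 252, 98.3 ± 16.6 and 0.821 ± 0.462 TPM in the same groups. Each of the 3 slow genes thus differed more than 10-fold between soleus and diaphragm and again between diaphragm and tibialis anterior.

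The fast genes were high everywhere and spread over a narrow range. Tnnt3 had the highest mean of the 8 genes in the non-cachectic tibialis anterior (15929 TPM ± 1622) and mock diaphragm (10843 ± 1267), and in the soleus (4870 ± 742) it lay below Tnnc1 and Tnnc2. Tnnc2 read 12712 ± 959, 9287 ± 1033 and 5417 ± 775 TPM and Tnni2 read 6430 ± 237, 4683 ± 339 and 2239 ± 421 TPM in that order of muscles. Together the 8 genes held from 2.11% to 5.88% of all TPM in a library.

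**Figure D1:**
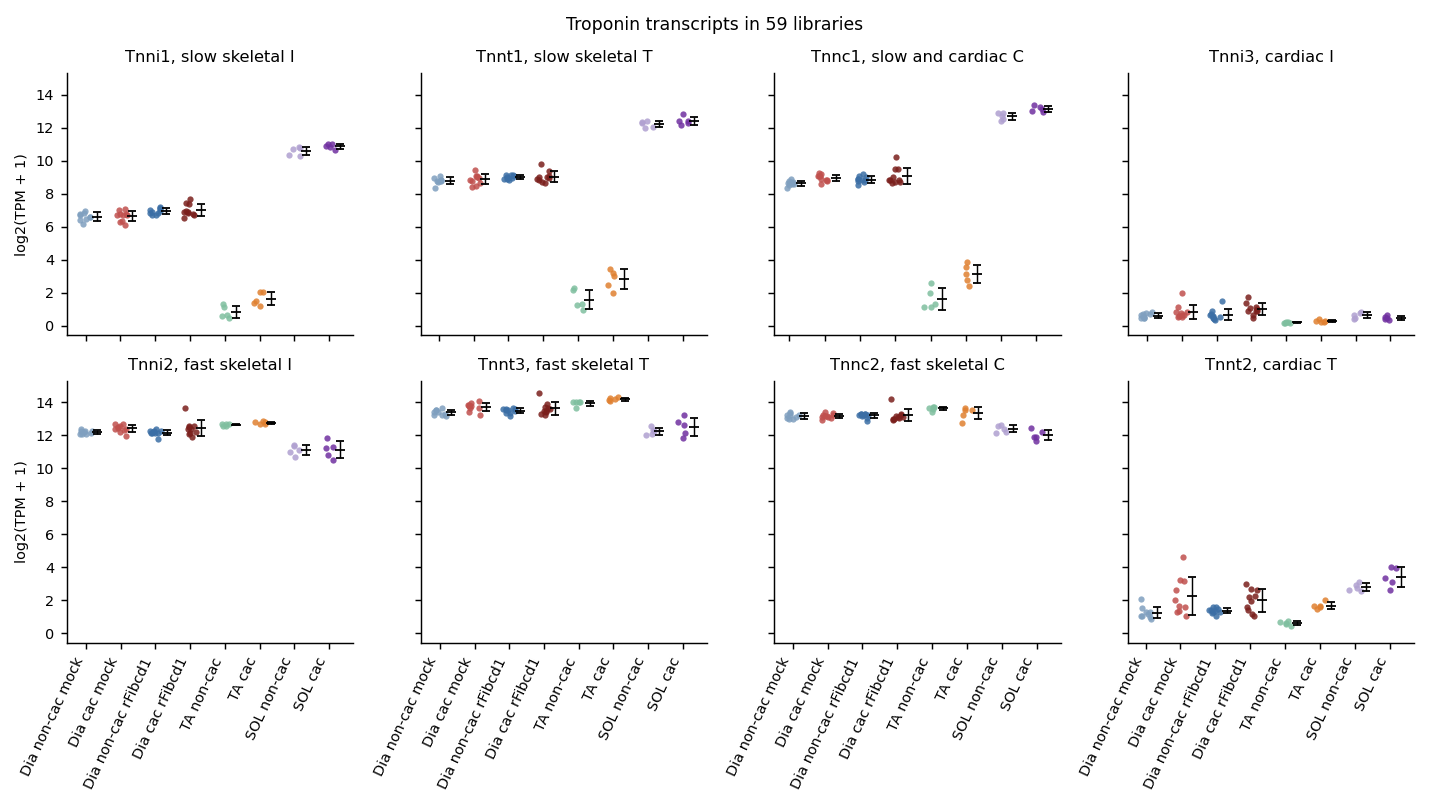
Each panel plots 1 troponin gene as log2(TPM + 1) in 59 libraries, 1 point a library, in 8 groups of diaphragm (Dia), tibialis anterior (TA) and soleus (SOL) from mice with cachectic (cac) or non-cachectic (non-cac) melanoma; bars are the mean and SD of the plotted values. The slow genes step down from soleus to diaphragm to tibialis anterior, the fast genes stay above 10 on this scale, and Tnni3 stays below 2.

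In the non-cachectic groups, 6 of the 7 troponin genes that passed the filter (at least 1 TPM in enough libraries) differed between diaphragm and tibialis anterior, where limma called 72.5% of all genes tested. Tnni1, Tnnt1 and Tnnc1 were higher in the diaphragm by 5.79, 7.21 and 7.02 on the log2 scale. At the low levels of the tibialis anterior the pseudocount of 1 shrinks these differences. Tnni2, Tnnt3 and Tnnc2 were lower in the diaphragm, with differences of -0.46, -0.56 and -0.46 (adjusted p between 0.000881 and 0.0023, limma). Relative to the median gene, 0.44 higher in the diaphragm, the fast genes differed by -0.898 to -0.998, and under quantile normalization Tnni2 and Tnnc2 turned to 0.04 and 0.00. Dunn's tests, with p-values adjusted over all genes, called 4 of 7 rather than 6 and 6884 of 13501 genes, without Tnnc1 (adjusted p = 0.0709) and Tnnt3 (adjusted p = 0.0725). All 7 differed between diaphragm and soleus, where 38.8% of genes were called (Dunn's tests called 0 of 7 and 8.73% of genes), and between tibialis anterior and soleus, where 69.5% were. The cardiac T gene Tnnt2 was lower in the diaphragm than in the soleus by a log2 difference of -1.54 (adjusted p = 0.000735, limma), and did not pass against the tibialis anterior (0.63, adjusted p = 0.105, limma). Its means were 1.46 TPM in the diaphragm and 0.545 TPM in the tibialis anterior, without overlap. All 7 troponins passed between these 2 muscles with a pseudocount of 0.1, array weights or a fit of these groups alone, where 74.2%, 84% and 81.7% of genes were called. Of 12 slow-fibre partners, 12 were lower in the tibialis anterior than in the soleus (11 under median-ratio scaling or quantile normalization), with a median of -5.81 beside -0.47 for all genes, and 11 of 12 fast-fibre partners were higher under all 3 scalings.

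Markers of other cell types also differed between the muscles. In the non-cachectic diaphragm 3 of 3 adipocyte, 2 of 2 liver, 2 of 2 red blood cell and 2 of 2 macrophage genes were higher than in the tibialis anterior (limma), with median log2 differences of 3.01, 4.14, 3.11 and 2.45 beside 0.44 for all genes, and with the same counts under median-ratio scaling. Smooth muscle genes had 2 of 3 higher there, and 0 with median-ratio scaling. Of all 13501 genes tested, 8640 were called higher in this comparison. Of the heart list 3 of 3 tested were higher than in the tibialis anterior, Myh6 (5.25), Gata4 (1.62) and Myl7 (0.85), and against the soleus Gata4 (1.62) and Myl7 (0.85) were higher and Myh6 lower (-3.83). The summed liver genes ran from 0.187 to 6516 TPM in the non-cachectic mock diaphragms and from 0.0243 to 0.246 TPM in the non-cachectic tibialis anterior. Against the soleus, the diaphragm had 2 of 2 red blood cell and 1 of 2 macrophage genes higher, where 2266 of 13501 genes were. The tibialis anterior had 3 of 3 adipocyte, 2 of 2 macrophage and 2 of 3 smooth muscle genes lower than the soleus. There 8625 of all 13501 genes were called lower, so these counts say little of the markers themselves. Their median log2 differences were -3.62, -1.24 and -0.99 beside -0.47 for all genes. The part of these cells in the troponin differences was not tested.

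The slow to fast ratio within each subunit does not depend on library scaling. In the non-cachectic soleus, slow transcripts took 41.4% ± 8.24 of troponin I, 49.8% ± 5.93 of troponin T and 55.2% ± 6.73 of troponin C (SD, n = 5). The non-cachectic mock diaphragm had shares of 2.05% ± 0.308, 3.96% ± 0.467 and 4.16% ± 0.557 (n = 9). In the tibialis anterior they were 0.0130% ± 0.00774, 0.0143% ± 0.00950 and 0.0190% ± 0.0138 (n = 5). All 9 contrasts between muscles were without overlap, and all had an adjusted p of at most 0.0179 (exact permutation test, two-sided, adjusted over the 27 ratio tests). Troponin I was the subunit with the lowest slow share in all 3 muscles by these means, though the spreads of the subunits overlap in the limb muscles.

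**Figure D2:**
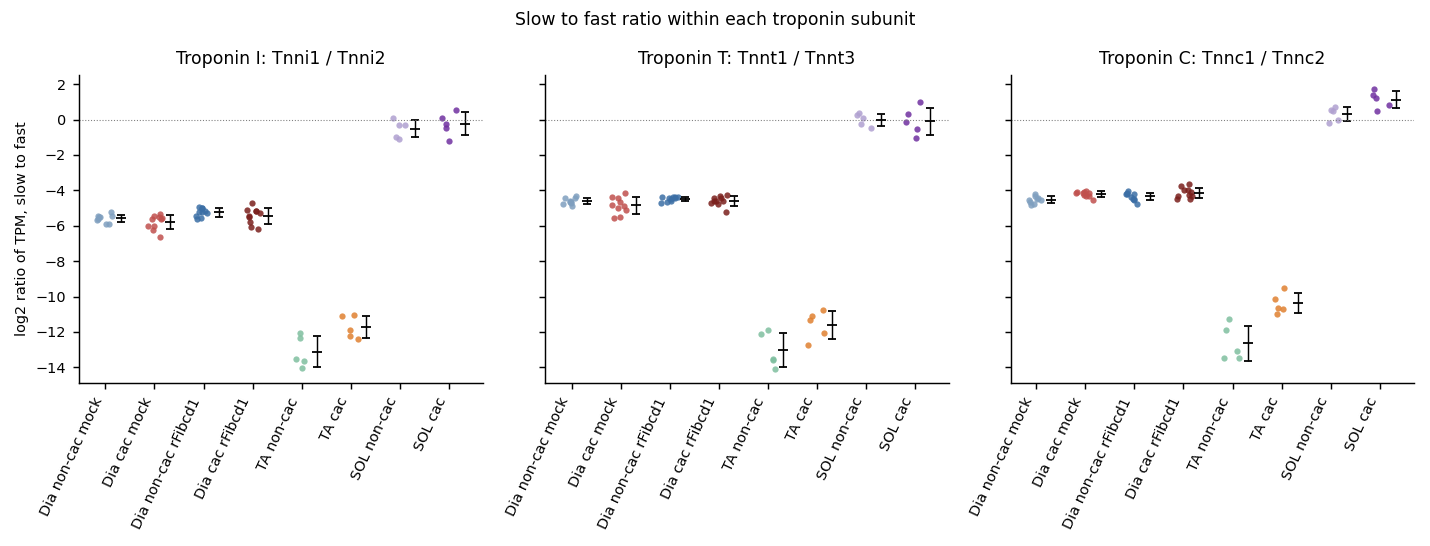
The 3 panels plot the log2 ratio of slow to fast TPM for troponin I, T and C in 8 groups, 1 point a library, with mean and SD; the dotted line marks equal slow and fast TPM. Soleus lies near 0, diaphragm between -6.62 and -3.63 and tibialis anterior between -14.08 and -9.53, and the cachectic tibialis anterior lies above the non-cachectic one for troponin C without overlap.

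In the tibialis anterior, limma called all 3 slow troponins and Tnnt2 higher in cachectic mice and no fast troponin, while Dunn's tests also called the fast genes Tnnt3 (adjusted p = 0.0175) and Tnni2 (adjusted p = 0.0428) among 66.1% of genes, and limma called Tnnt3 with the filter at a mean of 5 TPM (adjusted p = 0.0464). Of the 4 genes that limma called, Tnnc1 alone reached the filter in the non-cachectic group, and Tnni1, Tnnt1 and Tnnt2 passed it through the cachectic group, where they are high, so the count of 4 is a description. With no filter on low values limma called 4 of 8, among 34.1% of genes. Tnnc1 measured 4.35, 5.94, 7.67, 10.5 and 13.3 TPM in the 5 cachectic libraries, against the 1.16 to 5.05 TPM given above, so the groups overlapped by 1 library on each side. Its log2 difference was 1.52 ± 0.322 (SE, adjusted p = 0.00399, limma on log2(TPM + 1)), or 1.11 relative to the median gene. Tnnt1 measured 2.99, 4.49, 7.10, 8.10 and 9.91 TPM in cachectic and 0.954, 1.35, 1.45, 3.46 and 3.78 TPM in non-cachectic libraries. The lowest cachectic library lay below the 2 highest non-cachectic ones, and the difference was 1.24 ± 0.312 (adjusted p = 0.00803, limma). Tnni1 measured 1.31, 1.55, 1.85, 3.05 and 3.15 TPM against 0.395, 0.525, 0.562, 1.18 and 1.45 TPM, with 1 cachectic library below the highest non-cachectic one and a difference of 0.80 ± 0.208 (adjusted p = 0.00924, limma). At these low levels a pseudocount of 1 shrinks the difference, and with a pseudocount of 0.1 it was 1.37 for Tnni1, 1.60 for Tnnt1, 1.91 for Tnnc1 and 1.84 for Tnnt2, against 1.05 for Tnnt2 with a pseudocount of 1, each still called (limma).

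These calls, 4 of the 7 troponins tested, stand beside a background in which 60.2% of all genes were called and 56.4% were called higher. They also depend on the scaling. With median-ratio scaling Tnnc1 (1.15, adjusted p = 0.0396) and Tnnt2 (0.78, adjusted p = 0.00016) kept their calls, Tnnt1 (0.89, adjusted p = 0.0847) and Tnni1 (0.55, adjusted p = 0.102) lost theirs, and Tnnc2 was called lower (-0.79, adjusted p = 0.0469, all limma). Tnnt2 measured 1.74, 2.06, 2.11, 2.15 and 2.98 TPM in cachectic and 0.355, 0.478, 0.564, 0.638 and 0.690 TPM in non-cachectic libraries. Those groups did not overlap, and the share of all genes without overlap was not counted. Tnnt2, Tnni1 and Tnnt1 passed the filter through the cachectic group, so their p-values here and above are descriptions too. Among the fast genes, Tnnt3 stood at 0.24 (adjusted p = 0.0583), Tnni2 at 0.11 (adjusted p = 0.232) and Tnnc2 at -0.29 (adjusted p = 0.118, limma).

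The ratios gave the scaling-free view of the same muscle. The slow to fast ratio of troponin C was 2.26 higher on the log2 scale in cachectic mice, with no overlap (p = 0.00794, the smallest the exact permutation test allows for 5 against 5, adjusted p = 0.0179). Slow troponin C made up 0.0797% ± 0.0344 of troponin C there, against 0.0190% ± 0.0138 (SD, n = 5). Troponin I (1.39, adjusted p = 0.0765) and troponin T (1.42, adjusted p = 0.0857, exact permutation test) lay higher without passing.

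Other slow-fibre genes of the cachectic tibialis anterior did not share 1 direction. Of 12 slow-fibre partners, 9 were called, 4 higher and 5 lower, with a median of -0.47 beside 0.41 for all genes (2 higher and 6 lower with median-ratio scaling). Higher were Tpm3, slow tropomyosin (1.04, adjusted p = 0.000484, limma), Atp2a2, the slow calcium pump (0.90), Myh7, slow myosin heavy chain (0.89), and Myh7b (0.75). Lower were Myl3 (-2.74), Csrp3 (-1.77), Myl2 (-1.20), Mybpc1 (-0.60) and Casq2 (-0.50), among them the slow myosin light chains Myl2 and Myl3. Names beyond the 4 with the largest change were added after their values were seen. Of 12 fast-fibre partners 9 were called, 4 higher and 5 lower, or 0 higher and 5 lower with median-ratio scaling. Of 12 thin filament partners 6 were called, 2 higher and 4 lower, with Actc1, cardiac actin, at -2.81 and Acta1, skeletal actin, at -0.87, or 1 higher and 5 lower with median-ratio scaling. The markers of embryonic, regenerating or denervated muscle ranged in sum from 108 to 234 TPM in cachectic and from 32.8 to 106 TPM in non-cachectic libraries, with 4 of 7 tested genes higher, among them Myog (1.15), and 0 higher and 1 lower with median-ratio scaling. Their part in the slow troponin values was not tested.

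**Figure D3:**
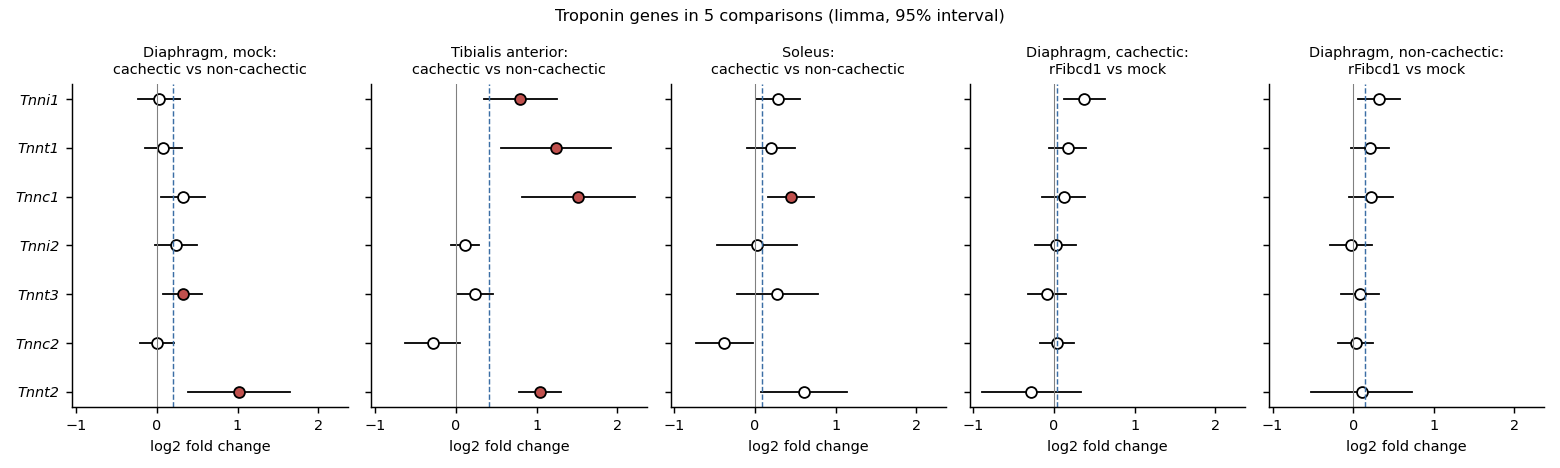
Log2 fold change (horizontal axis, from limma on log2(TPM + 1)) with its 95% interval for 7 troponin genes in 5 comparisons; filled circles have an adjusted p under 0.05 and the dashed line marks the median of all genes tested. Filled circles appear in the 3 melanoma panels, for Tnnt3 and Tnnt2 in diaphragm, Tnni1, Tnnt1, Tnnc1 and Tnnt2 in tibialis anterior and Tnnc1 in soleus, and in neither rFibcd1 panel.

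In the soleus 1 of 7 troponins passed, in a comparison where 25.1% of all genes were called. Tnnc1 measured 7944, 8115, 8955, 9749 and 10718 TPM in cachectic libraries, all above the highest non-cachectic library at 7706 TPM. The log2 difference was 0.45 ± 0.132 (SE, adjusted p = 0.0288, limma), or 0.36 relative to the median gene. The call was lost without any 1 of 4 libraries, those at 10718, 5490, 5942 and 6799 TPM (adjusted p = 0.0559, 0.0761, 0.0756 and 0.0567, limma), and with median-ratio scaling (0.35, adjusted p = 0.0622). Tnnc2 measured 3187, 3746, 3833, 4673 and 5625 TPM in cachectic and 4591, 4724, 5420, 5964 and 6387 TPM in non-cachectic libraries, a difference of -0.38 that did not pass (adjusted p = 0.103, limma).

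Slow troponin C made up 68.3% ± 7.32 of troponin C in the cachectic soleus and 55.2% ± 6.73 in the non-cachectic one (SD, n = 5). The log2 ratio differed by 0.83 (exact permutation p = 0.0317, adjusted p = 0.0659). Tnnt2 had the largest difference (0.61) and did not pass (adjusted p = 0.0921, limma). Tnni1 (0.29, adjusted p = 0.117), Tnnt1 (0.20, adjusted p = 0.30), Tnni2 (0.02) and Tnnt3 (0.28) did not pass (limma), and the ratios of troponin I and T differed by 0.26 and -0.08 (adjusted p = 0.536 and 0.865, exact permutation test). One cachectic soleus library held the fast myosin Myh4 at 4989 TPM, where no other soleus library passed 69.8, and had the highest Tnni2 (3602 TPM) and Tnnt3 (9523 TPM) of its group. Without it the troponin C ratio differed by 0.98 (adjusted p = 0.0165, exact permutation test) and Tnnc2 by -0.49 (adjusted p = 0.0341, limma).

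Of 12 slow-fibre partners in the soleus, 4 were higher and 0 lower, Csrp3 (1.94), Ankrd2 (1.74), Myoz2 (0.49) and Myh7 (0.41), with a median of 0.29 beside 0.09 for all genes. Median-ratio scaling left 2 higher. Of 12 thin filament partners 5 were higher and 1 lower, with Tmod1, which caps the filament's pointed end, at 0.86 and Lmod3 at -0.71, or 3 higher and 1 lower with median-ratio scaling. Of 12 fast-fibre partners 1 was called, Casq1 (-0.40), the fast calcium store protein. Of 8 markers of embryonic, regenerating or denervated muscle 3 were higher, Myh8 (2.90), the perinatal myosin heavy chain, Myog (1.38) and Runx1 (0.46).

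In the mock diaphragm, 2 of 7 troponins passed between cachectic and non-cachectic mice, in a comparison where 33.5% of all genes were called. Tnnt3 ran from 9438 to 17116 TPM (median 13879, n = 10) in cachectic and from 9311 to 13117 TPM (median 11053, n = 9) in non-cachectic libraries. The ranges overlapped and the log2 difference was 0.32 ± 0.119 (SE, adjusted p = 0.0342, limma). It was 0.12 relative to the median gene, and 0.09 with median-ratio scaling (adjusted p = 0.77). Leaving out any 1 of 7 libraries of the 39 in the fit also ended the call, with adjusted p up to 0.0695. Tnnc1 ran from 388 to 598 TPM (median 501) against 320 to 470 TPM (median 395), a difference of 0.32 that did not pass (adjusted p = 0.0634, limma). With the Pcna-ps2 state as a term, Tnnc1 passed (0.44, adjusted p = 0.0343), and so did Tnnt3 (0.39, adjusted p = 0.0354) and Tnnt2 (1.17, adjusted p = 0.0177, limma).

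Among the partners in the mock diaphragm, 5 of 12 slow-fibre genes were higher and 0 lower, with Ankrd2, a stretch-responsive protein of slow fibres, at 2.03, Myoz2 at 0.76, Myh7 at 0.40 and Mybpc1 at 0.33. Their median was 0.08 beside 0.20 for all genes, and 1 was higher with median-ratio scaling. Of 12 thin filament partners 3 were higher and 2 lower, with Actc1 at -2.12, Lmod3 at -0.79, Neb, the giant ruler protein nebulin, at 0.41 and Cfl2 at 0.37. With median-ratio scaling 0 of these were higher and 2 lower (limma). Of 12 fast-fibre partners 3 were higher and 1 lower, with Mybpc2 at 0.69 and Casq1 at -0.61, and with median-ratio scaling 0 were higher and 1 lower. Of 8 markers of embryonic, regenerating or denervated muscle 4 were higher and 0 lower, Runx1 (0.69), Myl4 (0.69), the embryonic and atrial light chain, Chrna1 (0.64), an acetylcholine receptor subunit, and Ncam1 (0.54), with a median of 0.59 beside 0.20 for all genes, and 3 were higher with median-ratio scaling. Their sum ran from 69.2 to 140 TPM in the cachectic and from 31.5 to 98.7 TPM in the non-cachectic mock diaphragm, and their part in the Tnnt2 difference was not tested.

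Tnnt2 ran from 1.10 to 24.0 TPM (median 2.63) in the cachectic mock diaphragm and from 0.836 to 3.14 TPM (median 1.23) in the non-cachectic one. The log2 difference was 1.02 ± 0.310 (adjusted p = 0.0119, limma), or 0.82 relative to the median gene. Without the library at 24.0 TPM, the one with Myl7 at 13.3 TPM, it was 0.75 (adjusted p = 0.0269). With median-ratio scaling it was 0.87 (adjusted p = 0.0578, limma). In the rFibcd1 diaphragms Tnnt2 ran from 1.05 to 7.08 TPM in cachectic and from 1.10 to 2.06 TPM in non-cachectic mice, a difference of 0.63 (adjusted p = 0.185, limma), in a comparison with 9.11% of genes and 0 of 7 troponins called by limma and 2 at an unadjusted p under 0.05. Dunn's tests called 0 of all 13426 genes there, so their 0 says nothing of the troponins.

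Smooth muscle genes were the most like Tnnt2 over all diaphragm libraries. The 3 of 9050 genes most like it by Pearson's r over 39 libraries, each taken as deviation from its group mean, were Tagln (0.77), Acta2 (0.75) and Myl9 (0.74), all known from contractile smooth muscle. These values include the library with the highest Tnnt2 (24.0 TPM), which also held 224 TPM of Acta2 and 181 TPM of Tagln. They were not computed without it, so how far they rest on it was not tested. All 3 genes of the smooth muscle list were tested, and 2 were higher in the cachectic mock diaphragm, Acta2 by 0.80 (adjusted p = 0.00235) and Myh11 by 0.55 (adjusted p = 0.0364, limma). Cnn1 stood at 0.87 (adjusted p = 0.0589). The summed list ranged from 72.4 to 317 TPM in that group and from 53.7 to 114 TPM in the non-cachectic mock diaphragm, and none of the 3 was at 0. In the tibialis anterior it ranged from 64.03 to 109 TPM in cachectic and from 31.5 to 60.3 TPM in non-cachectic mice, with Acta2 higher by 1.05 (adjusted p = 0.0032, limma). With median-ratio scaling 1 of 3 was higher in each of these comparisons. Their part in the Tnnt2 difference was not tested.

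**Figure D4:**
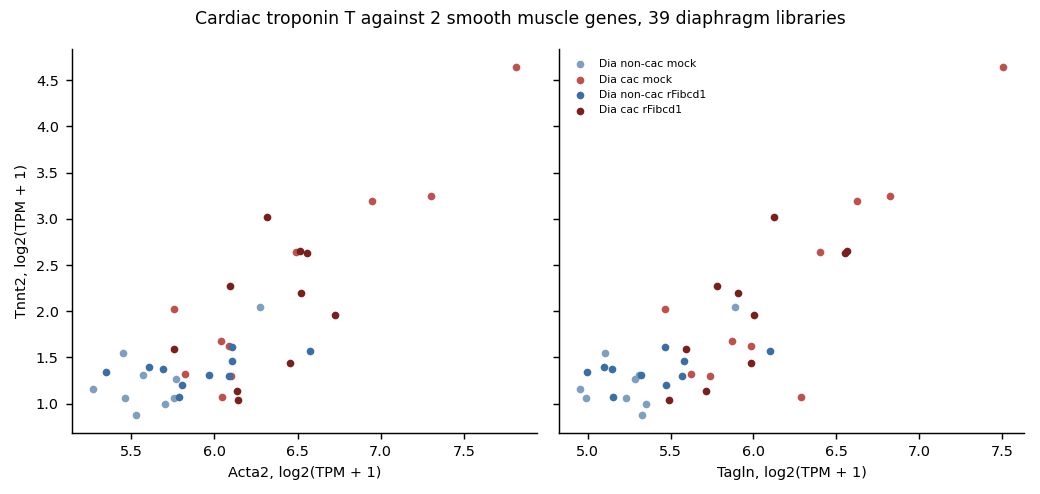
Tnnt2 (vertical axis) against Acta2 and Tagln (horizontal axes), all as log2(TPM + 1), 1 point for each of 39 diaphragm libraries coloured by group. The cachectic mock library at the upper right holds 24.0 TPM of Tnnt2, 224 TPM of Acta2 and 181 TPM of Tagln.

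Tnni3, the cardiac inhibitor, stayed between 0.110 and 2.92 TPM in all 59 libraries and did not pass the filter in any comparison. Its highest value fell in the same library as the highest Tnnt2 and Myl7. Of the 8 heart markers, 4 were tested in the diaphragm and 0 were called in either melanoma comparison (limma). In the limb muscles 1, Myh6, was tested and was higher in cachectic tibialis anterior (0.76, adjusted p = 0.0355) and soleus (0.46, adjusted p = 0.0226, limma), and with median-ratio scaling in the soleus alone. The summed list ran from 54.7 to 88.4 TPM in non-cachectic mock and from 64.4 to 145 TPM in cachectic mock diaphragms, nearly all of it Myh6. Myh6 reached 814 to 1617 TPM in soleus, where Myl7 was at 0 in every library, so Myh6 does not mark heart tissue there. Of the other marker lists, adipocyte genes had 1 of 3 higher in the cachectic mock diaphragm (Cfd, 1.34), macrophage genes had Cd68 higher in tibialis anterior (1.35) and soleus (1.99), and 0 of 2 red blood cell genes (all muscles) and 0 of 2 liver genes (diaphragm, not tested in the limbs) were called by limma. Nkx2-5, a transcription factor of heart muscle, was at or under 0.0738 TPM in every library.

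The slow to fast ratio in the mock diaphragm differed for troponin C alone among the subunits, and the subunits were not tested against each other. Slow troponin C took 5.14% ± 0.523 of troponin C in cachectic (n = 10) and 4.16% ± 0.557 in non-cachectic mice (SD, n = 9). The log2 ratio differed by 0.32 (exact permutation p = 0.0018, adjusted p = 0.00693), with overlapping ranges, and its adjusted p stayed at or under 0.014 when any single library was left out. The ratios of troponin I (-0.21, adjusted p = 0.234) and troponin T (-0.24, adjusted p = 0.224) did not pass. Within the rFibcd1 diaphragm the troponin C ratio differed by 0.21 (permutation p = 0.0796, adjusted p = 0.126).

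A second ratio, chosen after the values were seen, compared the fast subunits with each other, again free of library scaling. Fast troponin T over fast troponin C was higher in cachectic mice in tibialis anterior, soleus and the mock diaphragm. Column numbers recur in these muscles and no label ties them to mice, so the muscles are not known to be independent. In both limb muscles the Pcna-ps2 state coincides with the melanoma groups. In the soleus the log2 ratio of Tnnt3 to Tnnc2 measured 0.20, 0.22, 0.41, 0.76 and 0.92 in cachectic and -0.28, -0.17, -0.14, -0.10 and -0.09 in non-cachectic libraries. The groups did not overlap and differed by 0.66. In the tibialis anterior the values were 0.53, 0.60, 0.72, 0.83 and 1.58 against 0.23, 0.30, 0.32, 0.35 and 0.41, again without overlap, a difference of 0.53. For both limb muscles p was 0.00794, the smallest the exact permutation test allows, and the adjusted p over 27 such tests was 0.0195. In the mock diaphragm the difference was 0.32 with overlap (exact permutation p = 0.000617, adjusted p = 0.00555) and in the rFibcd1 diaphragm 0.14 (permutation p = 0.0555, adjusted p = 0.0833).

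Fast troponin I over fast troponin C shares Tnnc2 with the ratio above and with the slow to fast ratio of troponin C. These are therefore not separate results. It too was chosen after the values were seen, so the p-values of both fast ratios are descriptions. The log2 ratio of Tnni2 to Tnnc2 was higher in cachectic mice by 0.40 in tibialis anterior and 0.40 in soleus, without overlap in either (exact permutation p = 0.00794, adjusted p = 0.0195), by 0.23 in the mock diaphragm (adjusted p = 0.0153) and by 0.27 in the rFibcd1 diaphragm (permutation p = 0.00114, adjusted p = 0.00769). One cachectic tibialis anterior library had the highest Tnnt3 to Tnnc2 ratio (1.58) and the lowest Tnnc2 (6864 TPM), with Myog at 53.4 TPM where no other tibialis anterior library passed 10.9. Without it the tibialis anterior differences were 0.35 for Tnnt3 (adjusted p = 0.0195) and 0.25 for Tnni2 (adjusted p = 0.0358, exact permutation test). The Tnni2 call in tibialis anterior was lost (adjusted p = 0.0612) without any 1 of 4 non-cachectic libraries, and the soleus one (0.35, adjusted p = 0.0612, exact permutation test) without 1 non-cachectic library. Tnnt3 over Tnni2 differed less, by 0.12 in tibialis anterior (adjusted p = 0.0833), 0.25 in soleus (adjusted p = 0.0357) and 0.09 in the mock diaphragm (adjusted p = 0.0843, exact permutation test), and by -0.13 in the rFibcd1 diaphragm (permutation, adjusted p = 0.0424).

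**Figure D5:**
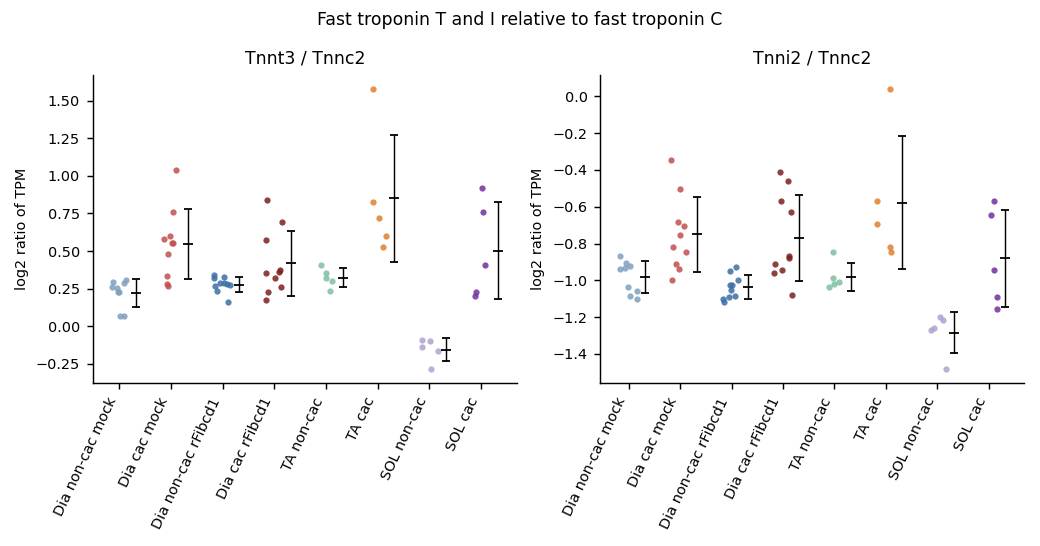
The panels plot the log2 ratios of Tnnt3 to Tnnc2 and of Tnni2 to Tnnc2 in 8 groups, 1 point a library, with mean and SD. In tibialis anterior and soleus every cachectic library lies above every non-cachectic one, and in the diaphragm the groups overlap.

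The melanoma difference of the slow troponins was itself compared between muscles, using mock diaphragms. Each muscle's contrast has its own libraries, but the comparisons of muscles reuse them. It was smaller in the diaphragm than in the tibialis anterior for Tnni1 (-0.78, adjusted p = 0.0356), Tnnt1 (-1.16, adjusted p = 0.00983) and Tnnc1 (-1.20, adjusted p = 0.00502, limma), 3 of 7 troponins where 5.04% of all genes were called and 4.33% were called lower. The Tnni1 call was lost (adjusted p from 0.0502 to 0.0909, limma) without any 1 of 7 of 39 libraries, 3 non-cachectic mock diaphragms, 3 non-cachectic and 1 cachectic tibialis anterior. It was larger in the tibialis anterior than in the soleus for Tnnt1 (1.04, adjusted p = 0.0181) and Tnnc1 (1.07, adjusted p = 0.0119, limma), 2 of 7 where 20.4% were called and 19.1% were called higher. A pseudocount of 0.1 or array weights called 3 of 7 there, among 25.2% and 26.7% of genes. With median-ratio scaling neither Tnnt1 nor Tnnc1 passed against the soleus (adjusted p = 0.156 and 0.121, limma). Both did against the diaphragm (adjusted p = 0.0425 and 0.0277, limma), and Tnni1 did not (adjusted p = 0.0595, limma). Between diaphragm and soleus 0 of 7 passed in limma, where 2.52% of genes were called. Tnnc2 had an unadjusted p under 0.05 there, the 1 troponin that did, and passed with quantile normalization (0.96, adjusted p = 0.0117).

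The background of these 3 comparisons moved with the settings. Median-ratio scaling brought the share of called genes that were higher from 14.1% to 60.9% (diaphragm against tibialis anterior), from 77.4% to 34.4% (diaphragm against soleus) and from 93.8% to 32.8% (tibialis anterior against soleus), so the directions of the background turned. The numbers in the table's column names recur in the 3 muscles, and with that number as a block (an alternative chosen after seeing the data) the genes called went from 681 to 2317, from 340 to 994 and from 2750 to 5569 of 13501, while 3, 0 and 2 troponins were called as before.

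For rFibcd1 against mock, 0 of 7 troponins passed in either melanoma group, where limma called 0.0447% (cachectic) and 0.417% (non-cachectic) of all genes. Dunn's tests called 0 as well, in a comparison where they called 0 (cachectic) and 14 (non-cachectic) of 13426 genes, and 1 troponin, Tnni1, had an unadjusted p under 0.05 in each group. The comparisons with mock share their mock libraries with the melanoma comparisons above. Tnni1 ran from 90.9 to 202 TPM (median 118, n = 10) with rFibcd1 and from 66.4 to 131 TPM (median 103, n = 10) with mock in cachectic mice, a log2 difference of 0.37 ± 0.125 (SE, unadjusted p = 0.00513, adjusted p = 0.28, limma). In non-cachectic mice it ran from 104 to 145 TPM (median 119, n = 10) against 70.3 to 125 TPM (median 97.1, n = 9), a difference of 0.32 ± 0.129 (adjusted p = 0.259, limma). The groups overlapped in both. Fitting the non-cachectic groups alone called 19.6% of genes and gave Tnni1 an adjusted p of 0.0266 and Tnnt1 (0.21) one of 0.0467 (limma), while median-ratio scaling brought Tnni1 to 0.14 (adjusted p = 0.828). The partner and marker lists had 0 genes called in either comparison. The 95% intervals were 0.12 to 0.63 and 0.06 to 0.58 for Tnni1 in the respective groups, and for Tnnc2 -0.17 to 0.25 and -0.18 to 0.25.

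The slow to fast ratio of troponin I passed for rFibcd1 in non-cachectic mice. Slow troponin I took 2.60% ± 0.410 of troponin I with rFibcd1 (n = 10) and 2.05% ± 0.308 with mock (SD, n = 9), and the log2 ratio differed by 0.35 (exact permutation p = 0.00541, adjusted p = 0.0179). In cachectic mice the shares were 2.34% ± 0.699 and 1.82% ± 0.456, and the ratio differed by 0.36 (permutation p = 0.0841, adjusted p = 0.126). With group medians the non-cachectic difference was 0.31 (adjusted p = 0.127). The interaction of melanoma and rFibcd1 called 0 of 7 troponins (limma, 0 also at an unadjusted p under 0.05) and 0.0223% of all genes, and its estimate for Tnni1 was 0.05 with a 95% interval of -0.31 to 0.41.

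Within the diaphragm the slow genes varied together from library to library. Over 39 libraries, each gene taken as deviation of log2(TPM + 1) from its group mean, Tnni1 and Tnnc1 had a Pearson's r of 0.78 (permutation p = 1e-05, the smallest 100000 permutations give) and a Spearman's rho of 0.86. Tnni1 and Tnnt1 had an r of 0.72 and a rho of 0.69, and Tnnt1 and Tnnc1 an r of 0.71 and a rho of 0.59 (adjusted p at or under 0.00119 over 21 pairs, permutation). Without the 2 libraries farthest from the median these were 0.82, 0.68 and 0.55. Of the fast genes, Tnni2 and Tnnt3, neighbours on chromosome 7, had an r of 0.93 and a rho of 0.85 (permutation, adjusted p at or under 0.000105), and 0.88 without the library with the highest fast troponins.

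Fast troponin C had an r of 0.81 to Tnni2 and 0.77 to Tnnt3 and rho of 0.53 and 0.58, lower values that were not tested against those of Tnni2 with Tnnt3. Without that library r was 0.58 and 0.57. With median-ratio scaling over all libraries it was 0.92 and 0.90, beside 0.97 for Tnni2 and Tnnt3. Across the slow and fast sets, Tnnt1 and Tnnc2 had an r of 0.68 (rho 0.56, permutation, adjusted p = 0.000367 for r), Tnnc1 and Tnnc2 of 0.67 and Tnni2 and Tnnc1 of 0.66, and without the library with the highest fast troponins these were 0.50, 0.36 and 0.35. Tnni2 and Tnnt1 had an r of 0.40 (permutation, adjusted p = 0.0884) that was -0.09 without the 2 farthest libraries, so that relation rested on those libraries, and 0.73 with median-ratio scaling. The libraries share a TPM sum, which ties all genes in them.

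The genes most like each troponin over the same libraries, out of 9050, were these. Tnnc1 was most like Myh6 (r = 0.91), the alpha myosin heavy chain, then Hcfc1r1 (0.81) and Pfdn1 (0.81). Tnni1 was most like Myh6 (0.75), Mrpl48 (0.74) and Myh7 (0.74). Tnnt1 was most like Myl3 (0.76), the slow essential light chain, then Drap1 (0.68) and Myl1 (0.65), a fast-fibre partner. Tnni2 and Tnnt3 shared Pacsin3 (0.90 and 0.87) and Ap4s1 (0.90 and 0.88) among their first 3, beside Nme2 (0.89) for Tnni2 and Mapk12 (0.86) for Tnnt3. Tnnc2 was most like Ndufa5 (0.90), Ndufs6 (0.87) and Uqcrh (0.87), which encode parts of mitochondrial respiratory complexes. The library with the highest fast troponins also held the highest diaphragm Myh6 (153 TPM). These r values were not computed without that library, so how far they rest on it was not tested.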

How the data were processed

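RNA of diaphragm, tibialis anterior and soleus was sequenced as 100-base reads by the authors, who aligned them to GRCm38 (mm10) in CLC Genomics Workbench and deposited a single table of TPM, which sum to 1000000 in each library. The annotation is not given in the sources used here, and the labels and the study's methods name different library kits, so use of strand is unsettled. TPM keep no read depth, so precision was judged from the spread between libraries. Columns name a group but not which labelled sample, so columns were used as replicates of their group (0 columns were left over). The labels call them biological replicates without naming mice, so p-values measure the spread between libraries.

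TPM were tested as log2(TPM + 1) in limma 3.58.1 (R 4.3.3, with a mean-variance trend) on genes with at least 1 TPM in as many libraries as the smallest group, with a Benjamini-Hochberg adjusted p under 0.05, in fits over the 4 diaphragm groups, over each limb muscle, and over the 6 groups without rFibcd1. Within-subunit log2 ratios were compared by exact permutation tests (100000 permutations where both groups held 10), two-sided, over 27 tests, with scipy 1.17.1. The scripts were tested on simulated data. The members, partner and marker lists were chosen with earlier results of these data known. Genes named are the 8 members, up to 4 called genes of a list by size of change, the markers, and the 3 genes most like each member with a mean of at least 5 TPM. Alternatives were another pseudocount (0.1), no filter, a filter at a mean of 5 TPM, median-ratio scaling, quantile normalization, array weights, Dunn's tests (the kind of test the study used, here adjusted over all genes and with no fold threshold), fits of 2 groups, a library state term, and leaving out each library. The library state term splits diaphragm libraries at 1 TPM of Pcna-ps2, a split known from earlier work on these data. The fast subunit ratios were added after the data were seen.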

Additional observations from a re-analysis of the deposited data

Results flagged for a closer look

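Some single libraries stood apart within their group (gap to the next library over the group's range above Dixon's 95% value), in 12 of 88 groups of values, where chance gives about 1 group in 20. The cachectic rFibcd1 diaphragm library named above held the highest Tnni2 (12877 TPM, next 6126), Tnnt3 (24545 TPM, next 15068), Tnnc2 (19084 TPM, next 10173), Tnnc1 (1199 TPM, next 718) and Tnnt1 (908 TPM, next 656) of its group. It also had Tcap at 17222 TPM and the lowest mitochondrial share of its group, 29.8%. Another library of that group had the lowest slow to fast log2 ratio of troponin T, -5.21 (next -4.76).

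In the cachectic mock diaphragm, Tnnt2 (24.0 TPM, next 8.50) and Tnni3 (2.92 TPM, next 1.16) were highest in 1 library, which also had the highest Myl7 (13.3 TPM) and Alb (1516 TPM) of its group. In the non-cachectic rFibcd1 diaphragm the lowest Tnni2 was 3445 TPM (next 4479) and the highest Tnni3 1.80 TPM (next 0.841). In the non-cachectic mock diaphragm the highest Tnnt2 was 3.14 TPM (next 1.92), and in the non-cachectic tibialis anterior the lowest Tnnt3 was 13049 TPM (next 16477).

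The melanoma difference itself differed between muscles (limma, tests of the difference). For diaphragm minus tibialis anterior it was -0.78 for Tnni1, -1.16 for Tnnt1 and -1.20 for Tnnc1 on the log2 scale. For tibialis anterior minus soleus it was 1.04 for Tnnt1 and 1.07 for Tnnc1.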

How the results depend on the processing

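TPM keep no depth, so no counting error can be given, and low genes (Tnni3, and Tnnt2 and the slow troponins in tibialis anterior) are the least precise. On the labels' replicate numbers no paired analysis was possible because the columns do not carry them. The columns have other numbers, which recur in the 3 muscles and which no label ties to a mouse, and a blocked fit across muscles was run on those. With that number as a block (limma duplicateCorrelation, correlation 0.3807, chosen after seeing the data), the 6 comparisons across muscles called as many troponins as without it, while the genes called in the 3 melanoma differences between muscles went from 681 to 2317, 340 to 994 and 2750 to 5569. The cause of the changes below was not tested.

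Of 7 troponins, 2 were called between cachectic and non-cachectic mock diaphragms. That became 1 of 8 with no filter (18% of all genes called) and 1 of 6 with a mean of 5 TPM (40.9%). It became 1 with quantile normalization (17.1%) and 0 with median-ratio scaling (15.8%). It became 4 with array weights, Dunn's tests or a fit of these groups alone, where 54.7%, 40.5% and 50.1% of all genes were called (33.5% as reported), and 1 to 4 when single libraries were left out. Quantile normalization called 1 in the rFibcd1 diaphragms (0 otherwise), among 12.2% of all genes (9.11% as reported). For rFibcd1 against mock in non-cachectic mice, array weights and the fit of 2 groups each called 2 (0 otherwise), among 39.9% and 19.6% of all genes (0.417% as reported). In the tibialis anterior 4 became 2 with the filter at a mean of 5 TPM (62.5% of genes called), which left 4 troponins to test, or quantile normalization (39.8%). It became 3 with median-ratio scaling (40.3%) and 6 with Dunn's tests (66.1%), against 60.2% as reported. In the soleus 1 became 0 with no filter (8 tested, 14.4% of genes called), median-ratio scaling (28%) or array weights (26.4%). It became 2 with quantile normalization (27.7%) and 0 to 2 without single libraries, against 25.1% as reported. Between non-cachectic muscles, quantile normalization called 3 rather than 6 for diaphragm against tibialis anterior (64.8% of genes called), turning Tnni2 to 0.036 and Tnnc2 to 0.0046. Dunn's tests called 4 there (51%). A pseudocount of 0.1 (74.2%), array weights (84%) and the fit of 2 groups (81.7%) each called 7 there, and no filter 7 of 8 (48.4%), against 72.5% as reported. For diaphragm against soleus Dunn's tests called 0 rather than 7, among 8.73% of genes. For the melanoma difference between muscles, quantile normalization called 1 rather than 3 (diaphragm and tibialis anterior, 2.97% of genes), 1 rather than 0 (diaphragm and soleus, 2.5%) and 0 rather than 2 (tibialis anterior and soleus, 6.25%). Median-ratio scaling called 2 rather than 3 for diaphragm and tibialis anterior (5.15%) and 0 rather than 2 for tibialis anterior and soleus (11.5%). For tibialis anterior and soleus a pseudocount of 0.1 (25.2%) and array weights (26.7%) each called 3.

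With group medians, the troponin I ratio for rFibcd1 in non-cachectic mice lost its call (0.31, adjusted p = 0.127). For 5 against 5 libraries that test gave an adjusted p of 0.0989 even to groups far apart (-13.19, -13.59 and -13.58 for troponin I, T and C between tibialis anterior and soleus), so it says nothing of the stability of these or of troponin C in tibialis anterior (2.45). Troponin C for rFibcd1 in cachectic mice moved to -0.027 (not called). Without single libraries the troponin C ratio ranged from 0.15 to 0.23 (rFibcd1, non-cachectic) and from 0.67 to 0.98 (soleus), troponin I from 1.16 to 1.65 (tibialis anterior), each with 1 library whose removal made a call, and troponin T from -0.34 to 0.16 (soleus).

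Median-ratio scaling brought the share of called genes that were higher from 92.0% to 46.8% (mock diaphragm), from 78.3% to 47.2% (rFibcd1 diaphragm), from 93.7% to 45.6% (tibialis anterior), from 88.3% to 48.7% (diaphragm against tibialis anterior) and from 2098 of 2999 genes to 54.3% (soleus), and for tibialis anterior against soleus from 8.1% to 52.9%. The melanoma differences between muscles turned as given above.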
